A study of Mus musculus with 2 samples.

Results

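The NRF2 antioxidant pathway was followed through 10 genes in precancerous liver of mice that carry a Pik3ca transgene in hepatocytes, with or without Kdm3a. The genes were Nfe2l2 and Keap1, which encode the transcription factor NRF2 and its inhibitor, and 8 genes widely described as NRF2 targets, Cbr3, Nqo1, Srxn1, Txnrd1, Gclc, Gclm, Slc7a11 and Hmox1. They were taken by name, with every probe set that the platform annotation assigns to one of them alone, and the set was chosen by the low knockout over wild-type signal ratios of Cbr3 and Srxn1 in this same comparison. They make up 10 of the 18193 genes named on the array and were read by 20 probe sets. The values below therefore describe these genes, and none of them is a test.

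The compared groups were Pik3caTg;Kdm3aKO, transgenic for Pik3ca and knockout for Kdm3a, and Pik3caTg;Kdm3aWT, transgenic for Pik3ca and wild type for Kdm3a. Both carry the Pik3ca transgene, expressed in hepatocytes only, so nothing here describes liver without activated PI3K signalling. Pik3ca encodes the catalytic subunit of phosphoinositide 3-kinase, and Kdm3a a demethylase of histone H3 lysine 9. The mice ate regular chow. The labels give no age, sex or strain, and do not say if each array was made from 1 animal or from a pool. Each group was 1 Affymetrix array, so the number of arrays limits the precision, no difference has a replicate check, and no p-value or error between animals can be had. The liver label fitted its markers: all 9 measured hepatocyte markers, among them Alb, had signals of at least 18815 in the knockout array and at least 8511 in the wild-type array. Kdm3a had a signal of 61.6 in the knockout array and 719.9 in the wild-type array, from 1 probe set whose place relative to the deleted part is not known here.

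NRF2 is a transcription factor that is kept scarce by KEAP1, which hands it to a CUL3 ubiquitin ligase for destruction. Oxidants and electrophiles modify KEAP1, NRF2 then accumulates, pairs with small MAF proteins and binds antioxidant response elements near genes of detoxification, glutathione synthesis and thioredoxin repair. In liver these genes limit injury by drugs and reactive metabolites, and lasting NRF2 activity is known from hepatocellular carcinoma. NRF2 is set mainly through the stability of the protein, which an expression array does not measure.

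The target genes fell into a part that was far lower in the knockout array and a part that lay close to the wild-type level. Cbr3, Slc7a11, Srxn1 and Nqo1 were lower by more than 4-fold and Txnrd1 by 2.36-fold, while Gclm and Hmox1 differed by less than 1.2-fold. Gclc lay just short of 2-fold. The transcripts of the regulators themselves, Nfe2l2 and Keap1, stayed within 1.5-fold. By the probe set of highest signal for each gene, 5 of 10 genes reached a 2-fold lower signal in the knockout array and 0 a 2-fold higher one, against 8.96% and 3.83% of the 11693 genes compared. Since these genes were chosen with this comparison in view, nothing is read from that contrast of shares.

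**Figure D1:**
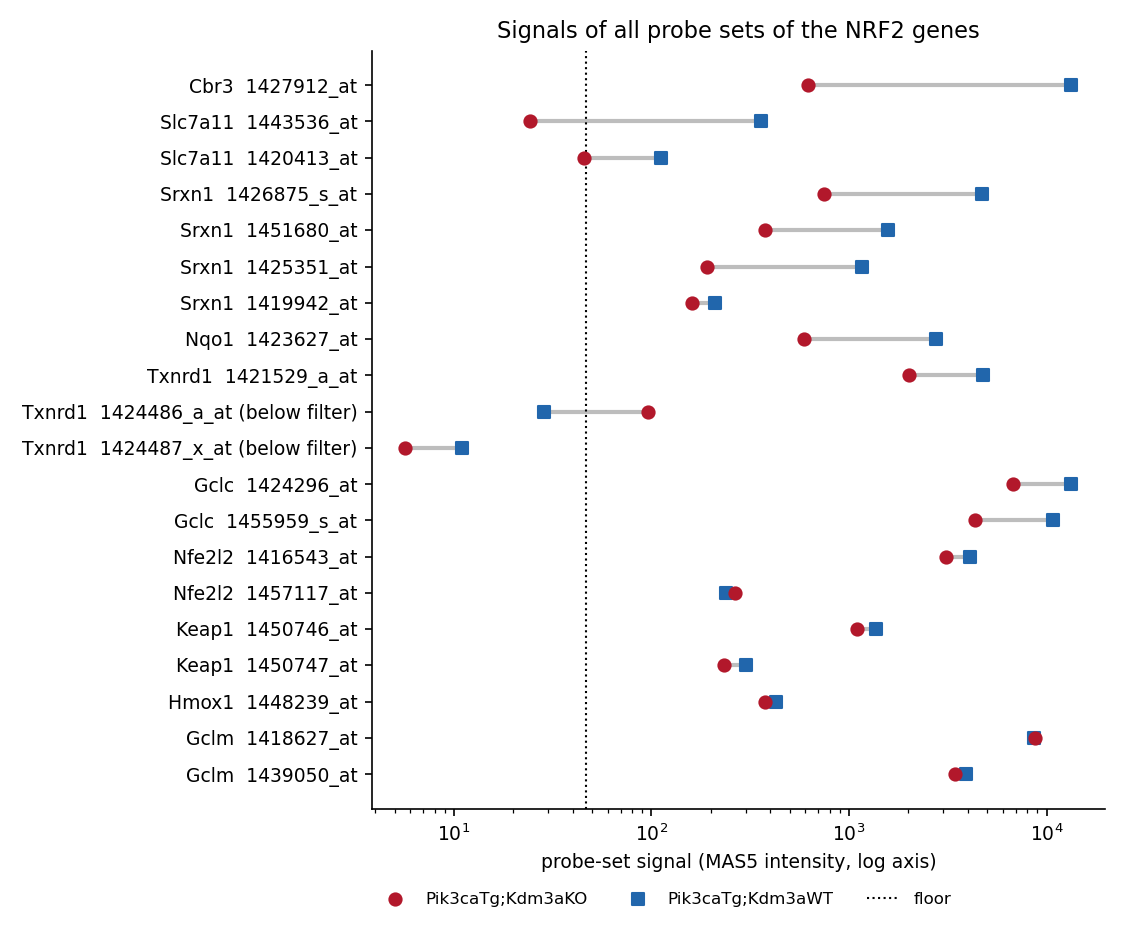
Signal of each of the 20 probe sets of the 10 genes (log axis), with the knockout array as red circles, the wild-type array as blue squares and the floor of 46.5 as a dotted line. The knockout circle lies left of the wild-type square for Cbr3, Nqo1, Gclc and all probe sets of Srxn1 and Slc7a11, and the circles and squares nearly coincide for Gclm and Hmox1.

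Among the reductases of quinones and carbonyls, Cbr3 gave the greatest difference. This carbonyl reductase, which uses NADPH to reduce ketones and quinones, had a signal of 617.3 in the knockout array against 13369 in the wild-type array, read by probe set 1427912_at. The knockout signal was 4.62% of the wild-type signal, a 21.7-fold difference with a log2 ratio (knockout over wild type) of -4.44, and 3 of the 11693 genes had a lower ratio. Nqo1, the quinone reductase that is the most widely used reporter of NRF2 activity, had a signal of 592.1 in the knockout array and 2743 in the wild-type array. It was 4.63-fold lower, with a log2 ratio of -2.21 and place 128 from the lowest of all genes. Cbr3 and Nqo1 each had 1 probe set, so neither ratio has a second reading on the array. Both signals of both genes were well over the floor, a signal of 46.5 to which dimmer values were raised and which marks the 40th percentile of both arrays.

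In the thioredoxin and peroxiredoxin branch, Srxn1 had 4 probe sets. It encodes sulfiredoxin, which returns over-oxidised peroxiredoxins to activity. The brightest, 1426875_s_at, had a signal of 748.0 in the knockout array and 4714 in the wild-type array, a log2 ratio of -2.66. Probe set 1451680_at had 376.9 in the knockout array and 1582 in the wild-type array (log2 ratio -2.07), and 1425351_at had 190.4 in the knockout array and 1157 in the wild-type array (log2 ratio -2.60). These 3 probe sets thus gave differences of 4.20-fold to 6.30-fold in the same direction. The fourth, 1419942_at, differed from them: its signal was 159.6 in the knockout array and 209.9 in the wild-type array, a log2 ratio of -0.39. Srxn1 was at least 2-fold lower whether the brightest probe set was taken or all 4 were averaged (log2 ratio -1.93).

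Txnrd1 encodes the cytosolic thioredoxin reductase, a selenoprotein that keeps thioredoxin reduced. Its probe set 1421529_a_at had a signal of 2017 in the knockout array and 4766 in the wild-type array, a log2 ratio of -1.24. Txnrd1 had the smallest difference of the genes past 2-fold. Its other probe sets were near background and were left out by the filter, which kept probe sets with a mean signal of at least 73.7: 1424486_a_at had 96.0 in the knockout array and 28.7 in the wild-type array, and 1424487_x_at had 5.67 in the knockout array and 10.9 in the wild-type array. Probe set 1424486_a_at thus ran against 1421529_a_at, at signals around the floor. The 2-fold call on Txnrd1 therefore rests on 1 probe set.

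Glutathione synthesis, which joins cysteine to glutamate, was read through both subunits of its first enzyme and through the importer of its cystine. Gclc, the catalytic subunit of glutamate-cysteine ligase, had a signal of 6769 in the knockout array and 13228 in the wild-type array by probe set 1424296_at (log2 ratio -0.97, or 1.95-fold lower). Its probe set 1455959_s_at had 4333 in the knockout array and 10824 in the wild-type array (log2 ratio -1.32, or 2.50-fold lower). The pair of Gclc readings thus lay on either side of the 2-fold line. Gclm, the modifier subunit that raises the efficiency of the same enzyme, had a signal of 8748 in the knockout array and 8647 in the wild-type array by 1418627_at. Its probe set 1439050_at had 3458 in the knockout array and 3914 in the wild-type array, so its log2 ratios were 0.02 and -0.18. The partner subunits of this enzyme thus differed in ratio, with both readings of Gclc lower than both of Gclm.

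Slc7a11, the cystine importer that feeds glutathione synthesis, was read by a pair of probe sets. Probe set 1443536_at had a signal of 24.2 in the knockout array and 359.5 in the wild-type array, and 1420413_at had 45.5 in the knockout array and 112.3 in the wild-type array. Both knockout signals were below the floor, so the differences are bounds, at least 7.73-fold and at least 2.41-fold lower. A probe set that passes the filter with its knockout signal under the floor has a wild-type signal of at least 100.9 and a difference of at least 2.17-fold, so Slc7a11 could not have been counted within 2-fold. Of the 9 genes with no signal under the floor, 4 were past 2-fold in the lower direction, or 44.4%, and their median log2 ratio was -0.97.

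Hmox1 encodes the inducible heme oxygenase, which opens heme to biliverdin, iron and carbon monoxide. It is an NRF2 target that also answers to heme through BACH1, and it is strongly expressed in liver macrophages. Its signal was 374.6 in the knockout array and 424.8 in the wild-type array, a log2 ratio of -0.18. The regulators differed little more. Nfe2l2 had a signal of 3080 in the knockout array and 4119 in the wild-type array by probe set 1416543_at (log2 ratio -0.42), and 265.8 in the knockout array and 239.2 in the wild-type array by 1457117_at (log2 ratio 0.15). Its probe sets went both ways. Keap1 had 1096 in the knockout array and 1368 in the wild-type array by 1450746_at, and 232.5 in the knockout array and 299.6 in the wild-type array by 1450747_at, with log2 ratios of -0.32 and -0.37. For scale, the log2 ratios of different probe sets of the same gene had a pooled SD of 0.446 over 4958 genes, and the median of the gene SDs was 0.256. Both are errors within arrays that leave out differences between animals. By the brightest probe sets, the differences of Hmox1 and Gclm were smaller than both values. Those of Nfe2l2 and Keap1 lay between the 2 values. Those of Cbr3, Slc7a11, Srxn1, Nqo1, Txnrd1 and Gclc were larger than both.

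**Figure D2:**
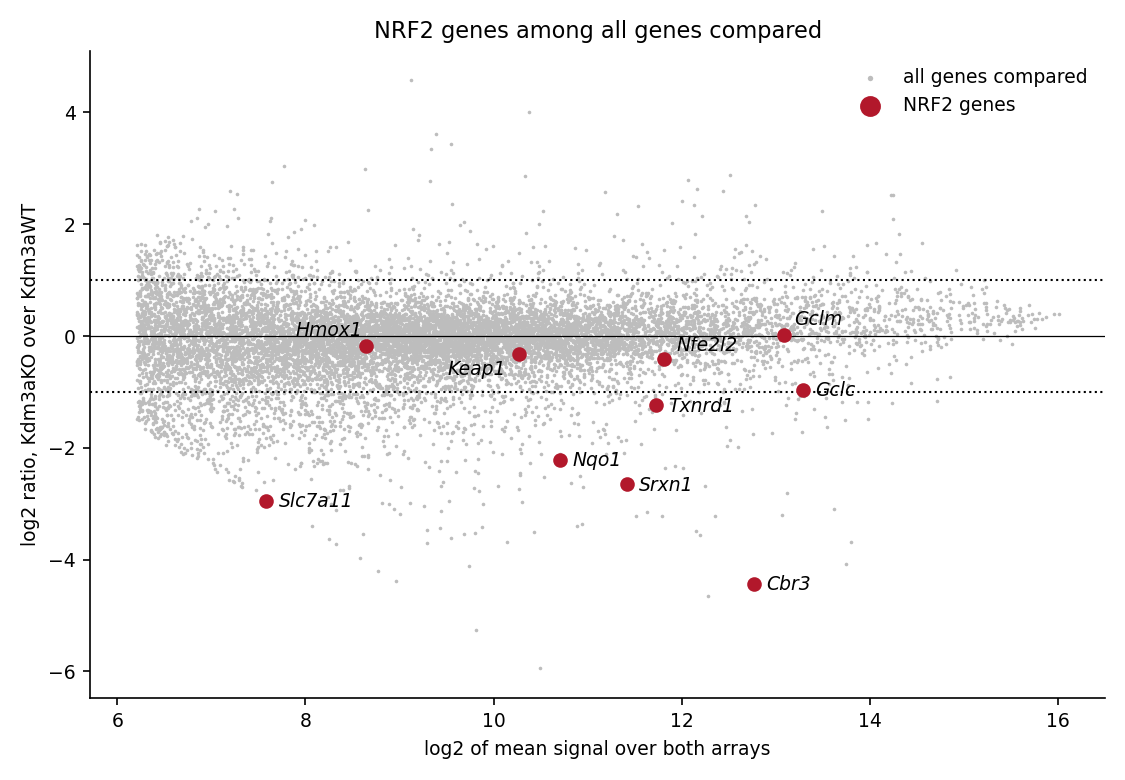
Log2 ratio of the knockout over the wild-type signal (vertical) against log2 of the mean signal over both arrays (horizontal) for the 11693 genes compared (grey) and the 10 NRF2 genes (red), with dotted lines at 2-fold. Cbr3 at -4.44, Slc7a11 at -2.95, Srxn1 at -2.66 and Nqo1 at -2.21 lie apart from the bulk of genes, and Gclm at 0.02 lies within it.

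Over the 10 genes the median log2 ratio was -1.10, beside -0.02 over all 11693 genes, and 9 ratios were negative and 1 was positive. Without Cbr3 and Srxn1, whose low ratios led to the choice, 3 of the other 8 genes were at least 2-fold lower, and the median of the 8 was -0.69. Of these 3, Slc7a11 could not have been counted within 2-fold, and Nqo1 and Txnrd1 each rest on 1 kept probe set. Of the 20 probe sets, 18 passed the filter, and 9 of these 18 reached a 2-fold lower signal and 0 a 2-fold higher one, against 8.19% and 4.43% of all 19800 kept probe sets. The 9 include both Slc7a11 probe sets and probe sets of Cbr3 and Srxn1, so nothing is read from that contrast. Of the 2339 genes of highest signal, to which 6 of the 10 genes belonged, 4.4% were past 2-fold in the lower and 4.49% in the higher direction. Of the 6 genes with more than 1 kept probe set, 4 had all of them in the same direction, the exceptions being Nfe2l2 and Gclm.

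The promoters of the genes were read to see what the genes that were lower and those that were not hold in common. RefSeq promoters (assembly GRCm38.p6, from 250 bases before to 50 bases after the start) were found for 8 of the 10 genes, 10 promoters in all, with Txnrd1 holding 3. The core of the antioxidant response element, TGACNNNGC on either strand, stood in 4 of these 10 promoters, those of Nfe2l2, Srxn1, Gclm and 1 of Txnrd1, against 12.4% of all 32851 promoters. The AP-1 site TGANTCA, which can overlap it, stood in the Srxn1 promoter alone, at -102 and at -45 from the start, against 7.81% of all promoters. The site at -45 continues as TGAGTCAGC, a match to TGANTCAGC, the form bound by NRF2 with small MAF proteins, which 1.19% of all promoters hold. That last motif was chosen after the sequence had been seen.

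The 4 promoters are shown because they hold the core, in genes that were lower (Srxn1, Txnrd1) and genes within 2-fold (Gclm, Nfe2l2). They are in lower case, 5′ to 3′ along the gene, with the matches in capitals.
Srxn1 promoter, chr2:152105274-152105573, plus strand: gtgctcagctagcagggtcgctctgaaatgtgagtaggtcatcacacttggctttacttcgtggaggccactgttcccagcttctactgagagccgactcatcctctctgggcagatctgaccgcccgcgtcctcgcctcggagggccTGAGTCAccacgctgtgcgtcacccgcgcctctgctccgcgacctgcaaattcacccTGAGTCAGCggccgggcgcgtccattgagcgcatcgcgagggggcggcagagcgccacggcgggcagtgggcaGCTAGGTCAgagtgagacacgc
Txnrd1 promoter, chr10:82858956-82859255, plus strand: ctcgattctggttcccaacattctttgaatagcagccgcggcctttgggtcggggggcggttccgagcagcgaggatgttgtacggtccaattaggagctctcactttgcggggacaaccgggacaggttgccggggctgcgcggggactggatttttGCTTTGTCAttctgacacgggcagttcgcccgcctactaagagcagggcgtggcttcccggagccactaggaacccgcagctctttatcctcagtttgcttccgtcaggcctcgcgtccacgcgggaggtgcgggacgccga
Gclm promoter, chr3:122245307-122245606, plus strand: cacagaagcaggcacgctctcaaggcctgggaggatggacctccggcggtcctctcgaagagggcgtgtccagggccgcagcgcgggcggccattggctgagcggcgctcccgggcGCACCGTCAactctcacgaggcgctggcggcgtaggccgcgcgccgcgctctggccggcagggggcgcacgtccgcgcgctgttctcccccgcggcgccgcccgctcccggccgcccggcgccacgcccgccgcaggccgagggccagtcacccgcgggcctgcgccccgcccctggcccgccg
Nfe2l2 promoter, chr2:75704614-75704913, minus strand: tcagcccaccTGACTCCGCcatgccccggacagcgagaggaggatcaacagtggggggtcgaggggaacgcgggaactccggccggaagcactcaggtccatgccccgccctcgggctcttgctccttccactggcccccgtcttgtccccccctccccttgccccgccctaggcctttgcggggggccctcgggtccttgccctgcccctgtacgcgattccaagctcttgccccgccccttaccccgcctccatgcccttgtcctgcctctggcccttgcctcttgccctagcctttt

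**Figure D3:**
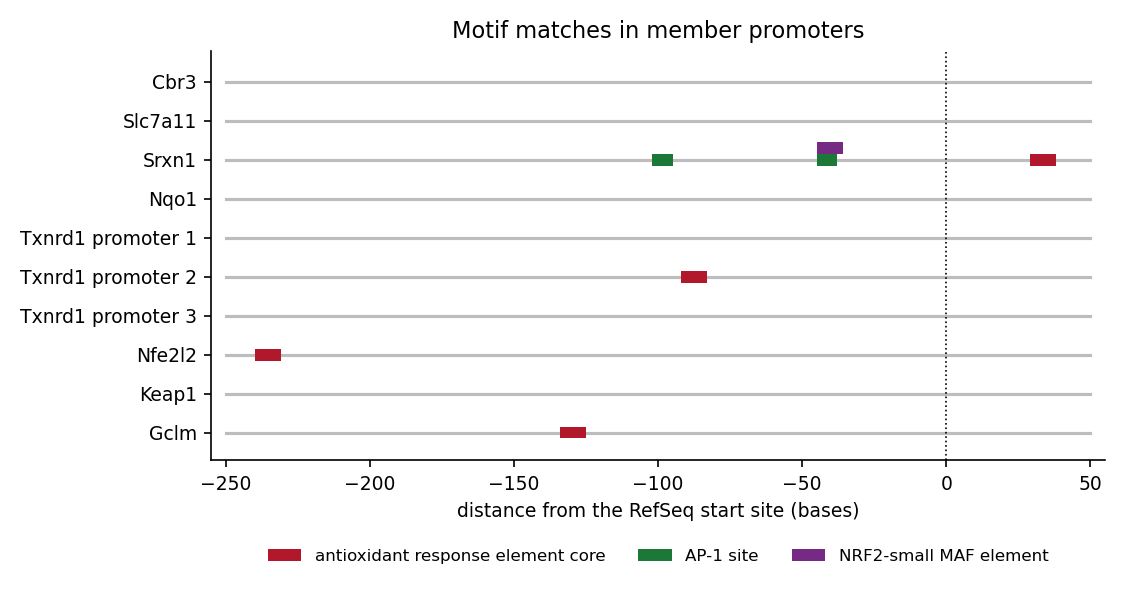
Positions of motif matches in the 10 RefSeq promoters of 8 of the genes, by distance in bases from the start site (dotted line), with a grey line for each window. Srxn1 holds the core at 29 to 37, AP-1 sites at -102 and -45 and the NRF2-small MAF form at -45, and Txnrd1, Gclm and Nfe2l2 hold 1 core each.

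The core thus stood in promoters of genes past 2-fold lower (Srxn1 -2.66, Txnrd1 -1.24) and of genes within 2-fold (Gclm 0.02, Nfe2l2 -0.42). Of the genes with a promoter read, 2 of the 5 that were lower and 2 of the 3 within 2-fold held the core. The windows of Cbr3, Nqo1 and Slc7a11, all lower, of Keap1, within 2-fold, and 2 of the 3 windows of Txnrd1 held none of these motifs. In the Srxn1 promoter the core lies on the minus strand after the start, and in Gclm and Txnrd1 it also lies on the minus strand, at -134 and -92. A match describes the sequence and not a bound site, and elements outside these windows were not read.

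Further genes of the same chemistry were taken in 10 lists written from general knowledge with earlier results of these arrays known. Of 116 listed genes, 102 could be compared. The rest had no probe set naming them alone, as for G6pdx and Ftl1, or none that passed the filter. Past 2-fold, 21 stood lower (20.6%) and 5 higher (4.90%), and their median log2 ratio was -0.22, beside -0.02 for all genes. The shares over all genes compared were 8.96% lower and 3.83% higher, so the share of higher list genes was near that of all genes. The single lists below hold few genes each, so their counts are given as a description, to be read beside these shares. Scaling on the spiked poly-A controls left 17 lower and 6 higher. Among the 21 lower and 5 higher genes, Mgst2, Psat1 and Rbx1 had a signal under the floor, so that passing the filter placed them past 2-fold.

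**Figure D4:**
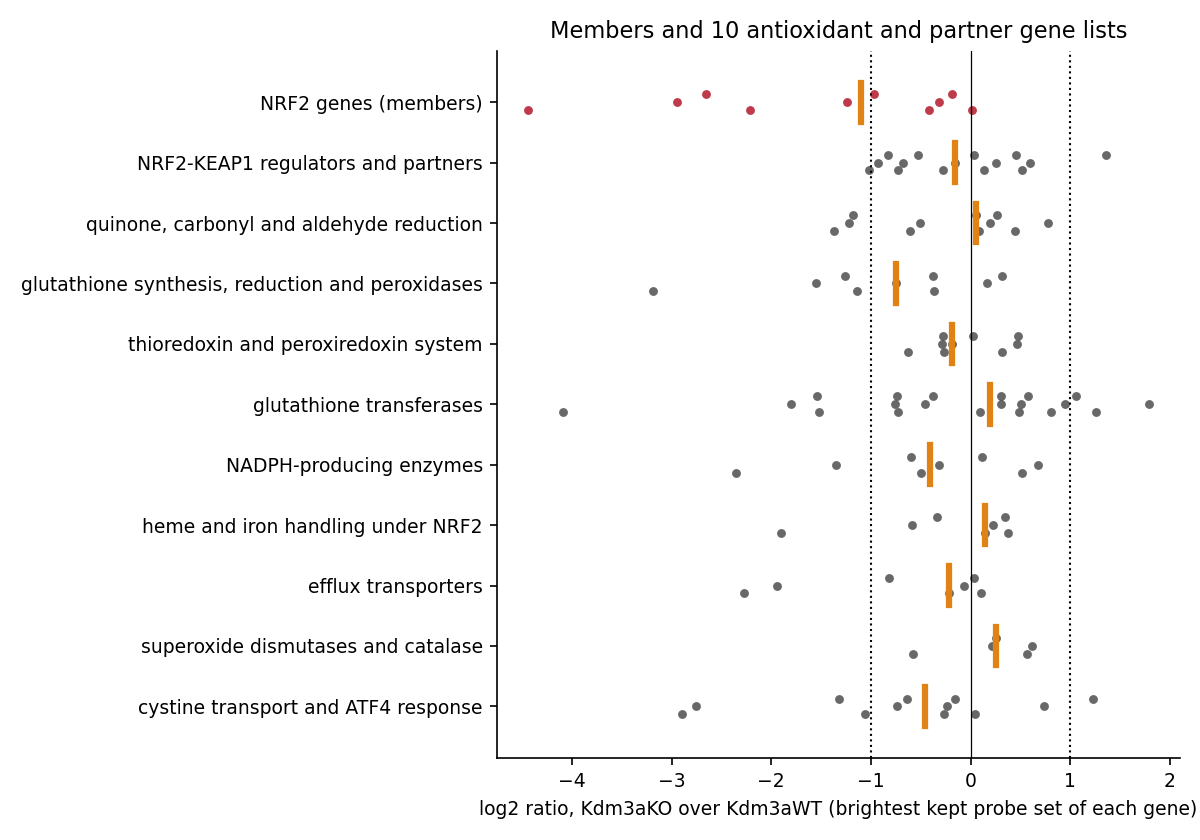
Log2 ratio of the knockout over the wild-type signal for each gene of the 10 members (red) and of 10 gene lists (grey), with the median as an orange bar and dotted lines at 2-fold. The glutathione synthesis and peroxidase list has the lowest median of the 10 lists at -0.74, and the thioredoxin list lies wholly within 2-fold.

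Enzymes of glutathione synthesis, reduction and peroxide removal included 4 of 9 genes past 2-fold in the lower direction and 0 in the higher, and their median was -0.74; over the scalings 3 or 4 were lower. Gpx2, a glutathione peroxidase best known from gut epithelium and a described NRF2 target, had a signal of 101.6 in the knockout array and 925.4 in the wild-type array, 9.11-fold lower. Gpx3, the secreted peroxidase, had 369.1 in the knockout array and 1083 in the wild-type array (log2 ratio -1.55). Ggct (-1.26), which cleaves gamma-glutamyl dipeptides, and Gss (-1.14), which adds glycine in the last step of glutathione synthesis, were the others. Gpx1, the main cytosolic peroxidase of hepatocytes, was highest at 0.32.

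Of 11 other quinone, carbonyl and aldehyde enzymes, 3 passed 2-fold on the lower side and 0 on the higher side. The median was 0.05, from -0.25 to 0.24 over the scalings. It was -0.51 without probe sets whose names end in _s_at, _x_at, _a_at or _f_at, dropped as possibly cross-matching. The _a_at ending marks transcripts of the same gene, so this setting drops more than cross-matching probe sets. The lower genes numbered 2 with poly-A scaling and 2 of 10 with the filter at the 70th percentile. Cbr1, the close relative of Cbr3, had a signal of 8210 in the knockout array and 18539 in the wild-type array, 2.26-fold lower, and fell just short of 2-fold with poly-A scaling (-0.99). The ratio of Cbr1 (-1.18) was thus far nearer to 0 than that of Cbr3 (-4.44). Ptgr1 (-1.37), an NADPH-dependent reductase of alkenals, and Akr1b8 (-1.22), an aldo-keto reductase, were the other lower genes. Nqo2 (0.78), the relative of Nqo1, was highest.

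The glutathione transferases went both ways, 4 of 20 lower and 3 higher by 2-fold or more, with a median of 0.20, which ranged from -0.11 to 0.38 over the scalings. Over all alternatives at 2-fold, 3 to 5 were lower and 2 to 4 higher. Gstm3 had a signal of 1530 in the knockout array against 25999 in the wild-type array, 17.0-fold lower. Gstm2 (-1.80), Gstm4 (-1.52) and the microsomal Mgst2 (at least 2.91-fold lower) were also lower, and Gstt3 (1.79), Gstt2 (1.26) and Gstk1 (1.06) were higher. The knockout signal of Mgst2 was under the floor, so that it could not have been counted within 2-fold. With the floor at the 60th percentile its log2 ratio was -0.08, and the filter at the 70th percentile left it out. Gstk1 was within 2-fold after median centring, quantile normalization, loess or hybridisation-control scaling. Members of the Gstm family are alike in sequence, so probes of one can read another.

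NADPH feeds NQO1, the carbonyl reductases and both glutathione and thioredoxin reductase. Of 8 enzymes that make it, 2 passed 2-fold as lower and 0 as higher, and the median was -0.40. Pgd, the second dehydrogenase of the pentose phosphate pathway and a described NRF2 target, had a signal of 1356 in the knockout array and 6926 in the wild-type array, 5.11-fold lower. All 4 of its kept probe sets were lower by 2-fold or more, down to a log2 ratio of -2.54. All were dropped by the setting without _s_at, _x_at, _a_at and _f_at probe sets. Nnt (-1.35), the mitochondrial transhydrogenase, was lower too, and Mthfd1 (0.67), of folate metabolism, was highest.

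Thioredoxin and peroxiredoxin genes other than Srxn1 and Txnrd1 lay within 2-fold in 9 of 9 cases that could be compared, with a median of -0.19. Prdx1, Prdx5 and Prdx6 were listed but had no probe set naming them alone, so they were not read. Txnip (-0.63), the thioredoxin-binding protein, was lowest and Txnrd2 (0.48), the mitochondrial thioredoxin reductase, was highest. Superoxide dismutases and catalase likewise lay within 2-fold in 5 of 5 cases, from Sod3 (-0.57), the extracellular dismutase, to Sod2 (0.61), the mitochondrial one. Their median of 0.26 ranged from -0.04 to 0.44 over the scalings.

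Of 7 heme and iron genes, 1 was at least 2-fold lower (14.3%, against 8.96% of all genes), and 0 of 4 without the _s_at, _x_at, _a_at and _f_at probe sets. That gene, Slc48a1, encodes a heme transporter of the endosome and lysosome and had a signal of 603.4 in the knockout array and 2256 in the wild-type array. Fech (0.38), the last enzyme of heme synthesis, was highest, and the list's median was 0.15, from -0.17 to 0.33 over the scalings. Among 7 efflux transporters, Abcc4 (4.83-fold lower) and Abcc1 (3.85-fold lower), which export glutathione conjugates and other organic anions, were past 2-fold, or 1 of 6 genes with the filter at the 70th percentile. Abcc3 (0.10) was highest, and the median was -0.22.

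Cystine import and serine and asparagine synthesis also answer to ATF4, a factor that shares Slc7a11 as a target with NRF2. Of 12 genes of that list, 4 were at least 2-fold lower, 1 was higher and the median was -0.45. The lower genes numbered 3 after quantile normalization, loess, poly-A scaling or averaging of probe sets. They were 2 of 10 with the filter at the 70th percentile and 1 of 7 without the _s_at, _x_at, _a_at and _f_at probe sets. Psat1 (at least 7.45-fold lower) and Phgdh (-1.32), of serine synthesis, Asns (6.77-fold lower), the asparagine synthetase, and Trib3 (-1.06), a pseudokinase induced by ATF4, were lower. The 3 kept probe sets of Phgdh ran from -1.47 to -0.10, and their mean of -0.96 was within 2-fold. Trib3 was within 2-fold after quantile normalization, loess or poly-A scaling (-0.87). The knockout signal of Psat1 was under the floor, so that it could not have been counted within 2-fold. Cth, which makes cysteine from cystathionine, was higher, with signals of 20818 in the knockout array and 8869 in the wild-type array. Slc3a2, the heavy chain that carries Slc7a11 to the membrane, had a log2 ratio of -0.64 and was picked out after its value was seen.

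Of 15 regulators and partners of NRF2, 1 was at least 2-fold lower and 1 was higher, shares near those of all genes, and the median was -0.15, from -0.29 to 0.03 over the scalings. Maff, a small MAF protein, had a signal of 199.2 in the knockout array and 402.4 in the wild-type array, just past 2-fold, a call that was lost after quantile normalization, loess or poly-A scaling. Rbx1, the RING subunit of the CUL3 ligase, was at least 2.56-fold higher with a wild-type signal under the floor, so that it could not have been counted within 2-fold. Sqstm1, the autophagy receptor p62 that captures KEAP1, was picked out after its value was seen, with a signal of 6059 in the knockout array and 10790 in the wild-type array (log2 ratio -0.83). A second probe set of Sqstm1 stood at 0.23.

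Markers of other cell types differed between the arrays alongside these genes. By its brightest probe set, each of the 8 cholangiocyte markers that could be compared passed 2-fold as lower in the knockout array. With poly-A scaling 7 of them did. Their summed signal was 1040 in the knockout array and 6376 in the wild-type array, of which Cd24a gave 328.4 and 3472. The kept probe sets of Epcam ran from a log2 ratio of -1.75 to -0.08, and those of Tspan8 from -2.96 to 0.69. All kept probe sets of Sox9 and Cd24a were past 2-fold as lower. Of 10 stellate cell and fibroblast markers 6 were lower and 0 higher, with summed signals of 20262 in the knockout array and 41379 in the wild-type array. Of 15 macrophage markers 7 were lower and 3 higher, with summed signals of 32016 in the knockout array and 48594 in the wild-type array. The 3 higher ones, Marco, Cd163 and Timd4, had wild-type signals under the floor, so that passing the filter placed them past 2-fold. The hepatocyte markers had positive ratios in 9 of 9 cases (8 after quantile normalization and 6 after loess), with a median of 0.50, and 2 of them were past 2-fold as higher. With other scalings 1 to 3 were higher, and the median was 0.22 after quantile normalization and 0.21 after loess. By the 2-fold rule, 1 of 8 endothelial, 3 of 6 T and NK cell and 2 of 3 neutrophil markers were lower and 0 of each were higher, 2 of 4 markers of the B lineage were higher and 0 lower, and both erythroid markers lay within 2-fold. Over all genes compared, 8.96% were lower and 3.83% higher, and the endothelial share of 12.5% was near that. Nkg7 (58.3) and Thy1 (49.0) had knockout signals under the filter value of 73.7. The 5 kept probe sets of Ighm, a higher B-lineage marker, ran from 0.19 to 3.44. Krt19, a defining marker of cholangiocytes, had 63.4 in the knockout array and 245.5 in the wild-type array. That knockout signal lay between the floor of 46.5 and the filter value of 73.7, as did those of Krt7 (72.4), Cldn7 (72.3) and Sox9 (73.1). These markers thus passed the filter through their wild-type signals. Without detection calls such knockout signals do not show whether the transcripts were present. The part of these cells in the NRF2 gene values was not tested, and in bulk liver fewer cells of a type and less RNA per cell cannot be told apart. The ratio of 3′ to 5′ control signals was 1.99 in the knockout array and 1.85 in the wild-type array for Actb. For Gapdh it was 0.654 in the knockout array and 0.701 in the wild-type array.

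**Figure D5:**
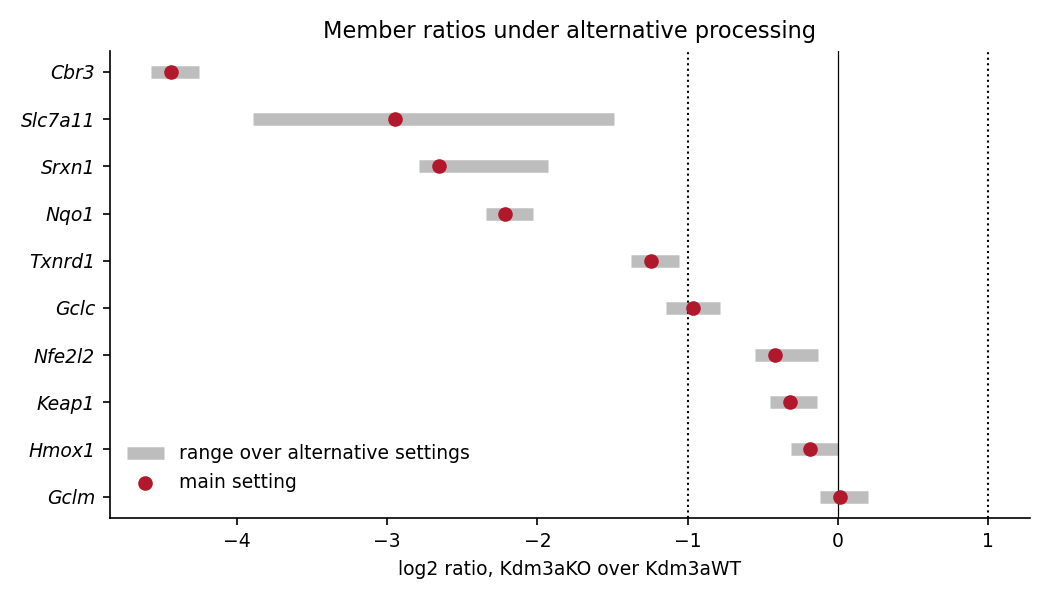
Log2 ratio of the knockout over the wild-type signal for each of the 10 genes (red point) and its range over the alternative processing settings (grey bar), with dotted lines at 2-fold. Cbr3, Slc7a11, Srxn1, Nqo1 and Txnrd1 stay past 2-fold lower in each setting that kept them, and the bar of Gclc, from -1.14 to -0.78, crosses the line.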

How the data were processed

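RNA of mouse liver was measured on 2 Affymetrix arrays, 1 per genotype, from 250 ng of total RNA per the labels' protocols. The authors deposited linear intensity values per probe set, made with MAS5 per the submitters' processing notes; its settings and any detection calls were not used here. A mean trimmed by 2% at each end came to 500.004 for either array, so both had been scaled to a common level.

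Genes were named through the platform annotation: of 45101 probe sets, 64 were controls, 34945 named 1 gene, 932 several and 9160 none here. RefSeq gene identifiers (GRCm38.p6) matched 34741 and gave current symbols. Values under the floor, the 40th percentile (46.5), were raised to it, probe sets were kept at or above the median mean signal (73.7), and a gene took its brightest kept probe set. Genes were counted at 2-fold, with no test. The calculation was tested on simulated data with python 3.11.15 and pandas 2.3.3.

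All members were named with every probe set; from each list, the genes past 2-fold and the highest and lowest, at most 6. Members and lists were chosen with earlier results of these data known. Motifs were searched on both strands. Alternatives were 5 scalings, 2 other filters, 3 other floors, 2 probe-set rules and 2 fold sizes.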

Additional observations from a re-analysis of the deposited data

How the results depend on the processing

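The count of genes at least 2-fold lower was 5 and lay between 4 and 6 under the 12 alternatives that kept the 2-fold size. Under each of these the count of higher genes was 0, and the median log2 ratio lay between -1.24 and -0.92. Gclc was at least 2-fold lower under 5 of 12 alternatives: median centring, quantile normalization, loess, hybridisation-control scaling and averaging of probe sets. Poly-A scaling gave -0.78. The other floors and filters left the ratio of Gclc unchanged, so they could not have altered its call. Slc7a11 moved most, from -3.89 without a floor to -1.49 with the floor at the 60th percentile, and a filter at the 70th percentile left it out. Srxn1 was -2.07 without the _s_at, _x_at, _a_at and _f_at probe sets. That setting left Txnrd1 out, whose kept probe set ends in _a_at. Gclm had a positive ratio under 7 of 12 alternatives, and Hmox1 under 1. The other floors and filters, counted among those 7, left the ratio of Gclm unchanged. The median of all genes shifted by 0.19 when scaled on poly-A controls and by -0.14 when scaled on hybridisation controls, and lower genes made up 52.3% and 80.6% of all those past 2-fold, against 70.1% as deposited. Over all genes, 775 were lower and 707 higher when scaled on poly-A controls, 564 and 210 with the filter at the 70th percentile, 702 and 250 with the floor at the 60th percentile, 2038 and 1296 at 1.5-fold and 409 and 102 at 3-fold, against 1048 and 448. Of the 518 other values recomputed, 38 were counted as moved. The remaining 480 were not all unchanged. The median of the glutathione transferases, for 1, went from 0.20 to -0.11 after quantile normalization and was not counted as moved. No paired analysis was possible because each group is 1 array.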
